A study of Mus musculus with 31 samples.

Results

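Epididymal white adipose tissue (eWAT) of F1 males from the HFLF arm was compared with that of F1 males from the HF arm, by RNA sequencing. The libraries were chosen by their titles, which gave 6 HFLF and 6 HF libraries of eWAT, 12 of the 31 libraries in the series. The other libraries were 4 of eWAT from the LF arm and libraries of liver from the same 3 arms. The LF libraries of eWAT added to the estimate of the spread and are set beside both arms near the end. The series as a whole asks how a father's diet shapes metabolism in the next generation, and its title names the microRNA let-7.

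All mice were wild-type C57BL/6 males of the F1 generation, 24 weeks old. All received chow until 6 weeks of age and then LFD for 18 weeks, whichever arm they belonged to. The diet label nevertheless reads LFD, HFD or HFLFD according to the arm. Because no label states whose diet this is, it was taken to name the feeding history of the fathers' line, as the series title implies. No label says how many fathers or litters stand behind the 6 libraries of an arm or whether animals were pooled, so p-values measure only the spread between these libraries. Bulk tissue was sequenced, so fewer cells of a type and less RNA per cell cannot be told apart.

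White fat cells store triglyceride in a single large droplet, take up glucose and fatty acids in response to insulin, and secrete hormones such as leptin and adiponectin. Their mitochondria oxidise pyruvate and fatty acids through the TCA cycle and the respiratory chain (OXPHOS), and also supply the citrate from which new fatty acids are made. The fat pad also holds macrophages, lymphocytes, mast cells, vessels, fibroblast-like progenitors and a mesothelial cover, and it lies against the testis and epididymis.

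The labelled tissue was checked against fat cell genes. The adiponectin gene Adipoq stood between 2958 and 5009.8 CPM (counts scaled to library size with TMM factors) over the 12 libraries, and the fatty acid carrier gene Fabp4 between 13238 and 19725 CPM. Total counts ran from 10585634 to 19771166 in the HF libraries and from 10103988 to 27230205 in the HFLF libraries. Several libraries stood apart in marker genes of other cells. Sperm genes were high in HF 2 and HF 6, B cell genes in HF 3 and HF 5, hepatocyte genes in HF 5, and smooth muscle genes in HF 1 and HFLF 4, while mesothelial genes were low in HFLF 6. For many lists, the counts and some medians are given without these libraries where that moved them by over 1.5 times. Lists given without such values may also depend on single libraries.

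Genes of mitochondrial respiration, the TCA cycle and lipid synthesis had higher means in HFLF than in HF, and general macrophage markers lower ones, but no single gene passed the edgeR test without a replicate block. Of 15987 genes, 0 had an adjusted p under 0.05 (edgeR's quasi-likelihood test, Benjamini-Hochberg), and the smallest adjusted p was 0.245. At an unadjusted p under 0.05 there were 777 genes with a higher mean in HFLF (4.86% of those tested) and 709 with a lower mean (4.43%). With other scalings the balance turned, to 702 higher and 775 lower with DESeq2 size factors and 612 and 833 with the upper quartile. DESeq2 on the same counts passed 35 genes higher and 12 lower. The higher genes included Gstz1 at an adjusted p of 0.000949, Gys2 and Aldoa at 0.00316, and Cycs, Pla2g2e and Poldip2 at 0.00349 (DESeq2, Benjamini-Hochberg). The lower genes included Cfp and Pla2g4a. All the other lower genes had DESeq2 log2 fold changes between -3.27 and -7.63. Among these were the sperm genes Ldhc, Prm1, Tnp2 and Gsg1, which were high in HF 2 and HF 6. The calls of these sperm genes carry no weight, as set out below. The rest of the lower genes with changes of that size are not described per library here. The unadjusted edgeR counts were 517 higher and 411 lower without HFLF 6, and 559 and 450 without HF 5. Without the libraries high in B cell genes, HF 3, HF 5 and LF 2, they were 455 and 479. The 6 HFLF libraries lay wholly above the 6 HF libraries for 104 genes (0.651%) and wholly below for 17 (0.106%). The median log2 fold change over all genes was 0.0012, a value that TMM scaling holds near 0. What follows are means, ranges and counts at an unadjusted p, for genes that did not pass the adjusted test.

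The most even difference lay in the genes of the mitochondrial respiratory chain. All 36 measured genes of complex I, the NADH dehydrogenase that feeds electrons into the chain, had a higher mean in HFLF, where 50.3% of all genes did. Of these, 19 were at an unadjusted p under 0.05, and 0 of the others were lower at that level. The median log2 fold change was 0.20, with a range of 0.092 to 0.29. The 40 measured genes of complexes II to V with cytochrome c also all had a higher mean, 24 of them at an unadjusted p under 0.05, with a median of 0.23. As the mean log2 CPM over its members, complex I stood at 6.07 to 6.30 in the HF libraries and 6.25 to 6.53 in the HFLF libraries. The groups overlapped, because HF 1 lay above HFLF 1 and HFLF 4.

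**Figure D1:**
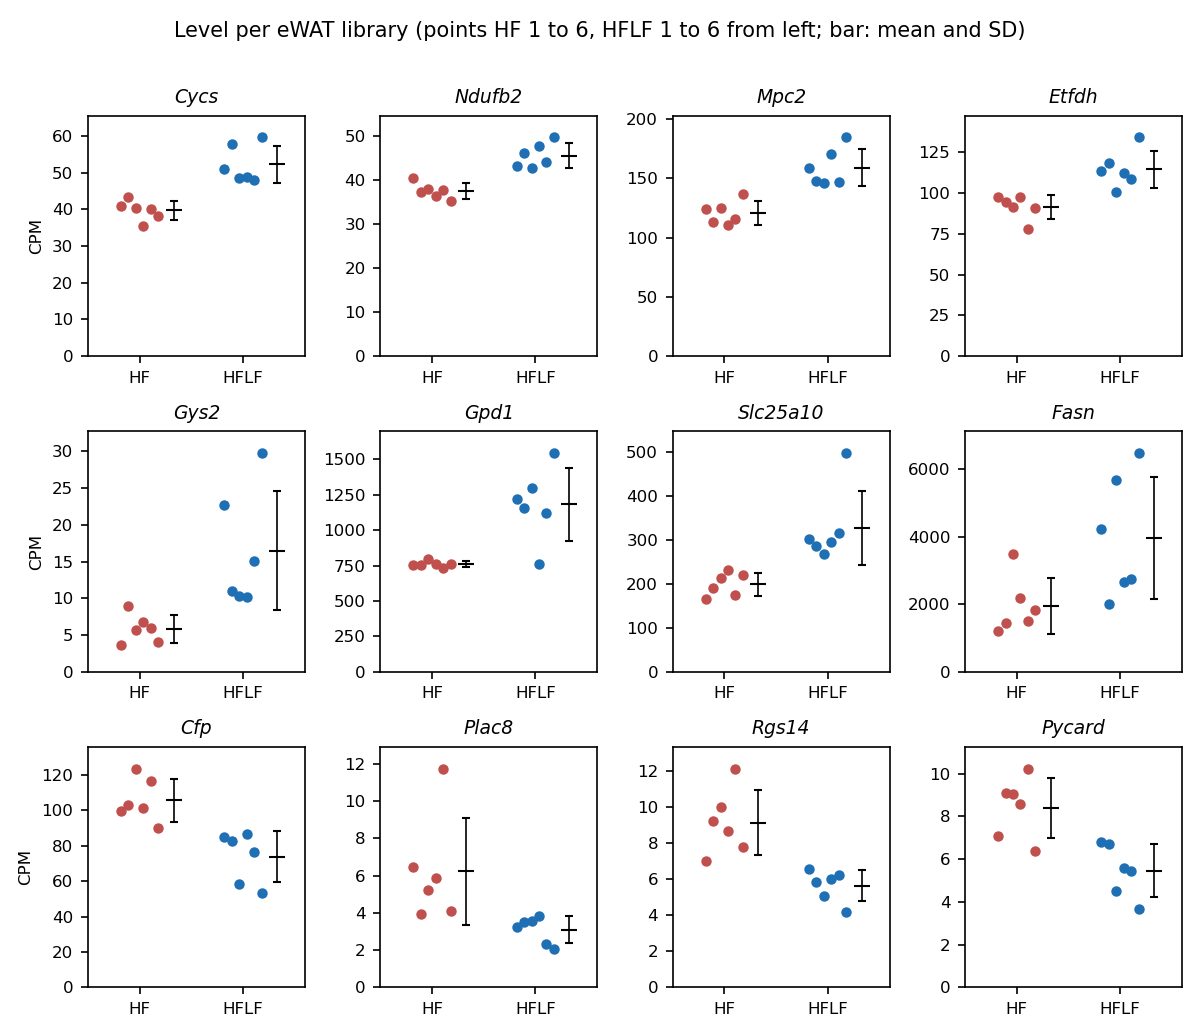
CPM of 12 genes in each HF and HFLF eWAT library on linear axes from 0, with points ordered by replicate number and the bar giving mean and SD (n = 6 per group). Cycs, Ndufb2, Mpc2, Etfdh, Gys2 and Slc25a10 are higher in every HFLF library than in any HF library, and Cfp, Plac8 and Rgs14 lower, while Gpd1, Fasn and Pycard overlap.

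Cytochrome c, the electron carrier between complexes III and IV, had the smallest p of all genes. Cycs (ENSMUSG00000063694.5, chromosome 6, 50562563 to 50566538, minus strand, GRCm38) had 35.5, 40.2 and 43.3 CPM as the lowest, median and highest HF library and 47.96, 49.8 and 59.6 CPM in HFLF. Every HFLF library was above every HF library. The log2 fold change was 0.40 ± 0.075 (SE), with an adjusted p of 0.245, and it stayed between 0.36 and 0.44 over 25 alternative settings. Cycs has processed copies elsewhere in the mouse genome, and how the deposited counts divided reads among such copies is not stated in the sources used.

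Within complex I, Ndufb2 had 35.3, 37.5 and 40.6 CPM as the lowest, median and highest HF library and 42.7, 45.01 and 49.7 CPM in HFLF, a log2 fold change of 0.28 ± 0.067 (SE, adjusted p = 0.381). The accessory subunit genes Ndufb6, Ndufb3 and Ndufa8 likewise did not overlap between the groups, with log2 fold changes of 0.26, 0.29 and 0.24. These 4 were among 5 complex I genes with groups apart. In the later complexes the differences were of the same size. Uqcrfs1, the iron-sulphur protein of complex III, had a log2 fold change of 0.31 ± 0.09 (SE), and the complex IV subunit genes Cox6b1 and Cox7a2 had 0.28 and 0.25.

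The genes of the respiratory chain that lie on mitochondrial DNA also leaned higher. All 8 measured had a higher mean in HFLF, with 0 at an unadjusted p under 0.05 and a median log2 fold change of 0.20. The cytochrome b gene mt-Cytb ranged from 4257 to 6940.2 CPM in HF and from 5244 to 8557 CPM in HFLF. The log2 fold changes of mt-Nd4 and mt-Co1 were 0.22 ± 0.15 and 0.19 ± 0.14 (SE). HFLF 2 had the lowest mean level of these 8 genes of all 12 libraries and the highest of complex I.

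The promoters of these genes are shown because every member had a higher mean in HFLF. RefSeq windows of the 250 bases before the gene start (GRCm38.p6) were found for 32 of the 36 complex I genes and 31 of the 40 genes of complexes II to V. They were searched on both strands for the motif of NRF1, a factor known for respiratory chain genes (GCGCA, any base, GCGC), and for the letters TGACGTCA of CREB. The NRF1 motif was in 18.8% of complex I windows and 22.6% of those of complexes II to V, beside 8.42% of the 11570 measured genes with a window. The CREB letters were in 9.38% (3 windows) and 6.45% (2 windows), beside 2.83%. The letters TNAAGGTCA (ERR), CCGGAAGTG (ETS) and TCACNCCAC (SREBP) were also searched, and each was in at most 1 window of either list. Windows of the TCA cycle, fatty acid oxidation and lipogenic lists, described below, were searched too. In that order the NRF1 motif was in 13.6%, 15.8% and 7.41%, and the CREB letters in 9.09%, 0% and 3.7%. These matches describe letters in a window, not bound sites. In these sequences, 5′ to 3′ on the gene's strand, capitals mark the CREB letters in Cycs, Ndufb2 and Uqcrfs1 and the NRF1 motif in Ndufa8. These 4 were picked after the search, as members of the lists that hold a match.
Cycs promoter, chr6:50566570-50566819, minus strand: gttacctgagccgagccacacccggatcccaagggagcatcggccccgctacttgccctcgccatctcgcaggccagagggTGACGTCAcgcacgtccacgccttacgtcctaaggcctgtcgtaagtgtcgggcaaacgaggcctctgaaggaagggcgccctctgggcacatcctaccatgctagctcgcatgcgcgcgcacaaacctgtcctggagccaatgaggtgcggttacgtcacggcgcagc
Ndufb2 promoter, chr6:39592315-39592564, plus strand: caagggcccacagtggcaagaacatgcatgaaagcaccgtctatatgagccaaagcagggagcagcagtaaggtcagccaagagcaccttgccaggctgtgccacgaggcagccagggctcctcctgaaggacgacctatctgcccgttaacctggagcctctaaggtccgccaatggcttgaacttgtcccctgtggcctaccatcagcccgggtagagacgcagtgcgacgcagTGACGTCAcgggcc
Uqcrfs1 promoter, chr13:30545317-30545566, minus strand: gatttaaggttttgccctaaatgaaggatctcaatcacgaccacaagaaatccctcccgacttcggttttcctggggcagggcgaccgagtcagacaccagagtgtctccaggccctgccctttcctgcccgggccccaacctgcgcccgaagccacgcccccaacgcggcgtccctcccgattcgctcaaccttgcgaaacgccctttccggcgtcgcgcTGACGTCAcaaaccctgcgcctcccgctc
Ndufa8 promoter, chr2:36049339-36049588, minus strand: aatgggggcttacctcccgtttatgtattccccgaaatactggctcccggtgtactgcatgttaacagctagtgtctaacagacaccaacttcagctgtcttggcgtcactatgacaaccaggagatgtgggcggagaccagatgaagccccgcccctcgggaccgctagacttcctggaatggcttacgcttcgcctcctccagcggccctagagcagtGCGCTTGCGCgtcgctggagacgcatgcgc
The first capital lies 169 bases before the start in Cycs, 14 in Ndufb2, 29 in Uqcrfs1 and 30 in Ndufa8.

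The TCA cycle and the entry of pyruvate into mitochondria differed in the same direction. All 25 measured genes had a higher mean in HFLF, 17 of them at an unadjusted p under 0.05, with a median log2 fold change of 0.26. The mitochondrial pyruvate carrier is a pair of proteins, and both of its genes lay wholly apart between the groups, Mpc1 only narrowly. Mpc2 (ENSMUSG00000026568.6, chromosome 1, 165460637 to 165481214, plus strand) had 111, 119.7 and 137 CPM as the lowest, median and highest HF library and 146, 153 and 185 CPM in HFLF, a log2 fold change of 0.40 ± 0.082 (SE, adjusted p = 0.245). Mpc1 had 49.3, 59.4 and 63.5 CPM and 63.5, 73.8 and 103 CPM in the same order, with a log2 fold change of 0.41 ± 0.12 (SE). A copy named Mpc1-ps has counts of its own in the table, so the reads of Mpc1 may be split. Idh3a, a subunit of isocitrate dehydrogenase, had 0.38 ± 0.10 and Suclg1, a subunit of succinyl-CoA ligase, 0.24 ± 0.076 (log2 fold change, SE). Their groups overlapped.

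Fatty acid oxidation and the breakdown of branched-chain amino acids both feed the same mitochondria. In the first list 22 of 23 measured genes had a higher mean and 11 were at an unadjusted p under 0.05, with a median log2 fold change of 0.26. Etfdh, which passes electrons from fatty acid oxidation to ubiquinone, had 77.7, 92.99 and 97.7 CPM as the lowest, median and highest HF library and 100.4, 113 and 134 CPM in HFLF, a log2 fold change of 0.32 ± 0.078 (SE, adjusted p = 0.381). Its groups did not overlap, nor did those of Decr1, the dienoyl-CoA reductase (0.26). The oxidation enzymes Hadhb and Acadl overlapped, with log2 fold changes of 0.30 and 0.31. In the amino acid list 24 of 25 had a higher mean and 7 were at an unadjusted p under 0.05, with a median of 0.19. Auh of leucine breakdown lay apart between the groups (0.25 ± 0.065, log2 fold change, SE), and Pcca, Mcee and Acat1 had 0.28, 0.21 and 0.22. Among regulators of mitochondrial number and shape, 4 of 31 genes were at an unadjusted p under 0.05, all higher (12.9%, beside 4.86% of all genes). Leaving out single libraries gave from 1 to 5, and the list median was only 0.085. The 4 included the prohibitin gene Phb (0.27), the fusion gene Mfn2 (0.23) and the mitochondrial transcription factor gene Tfb2m (0.21). Ppargc1a, a coactivator of mitochondrial genes, had a log2 fold change of 0.038 ± 0.34 (SE), whose sign turned under several alternatives.

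**Figure D2:**
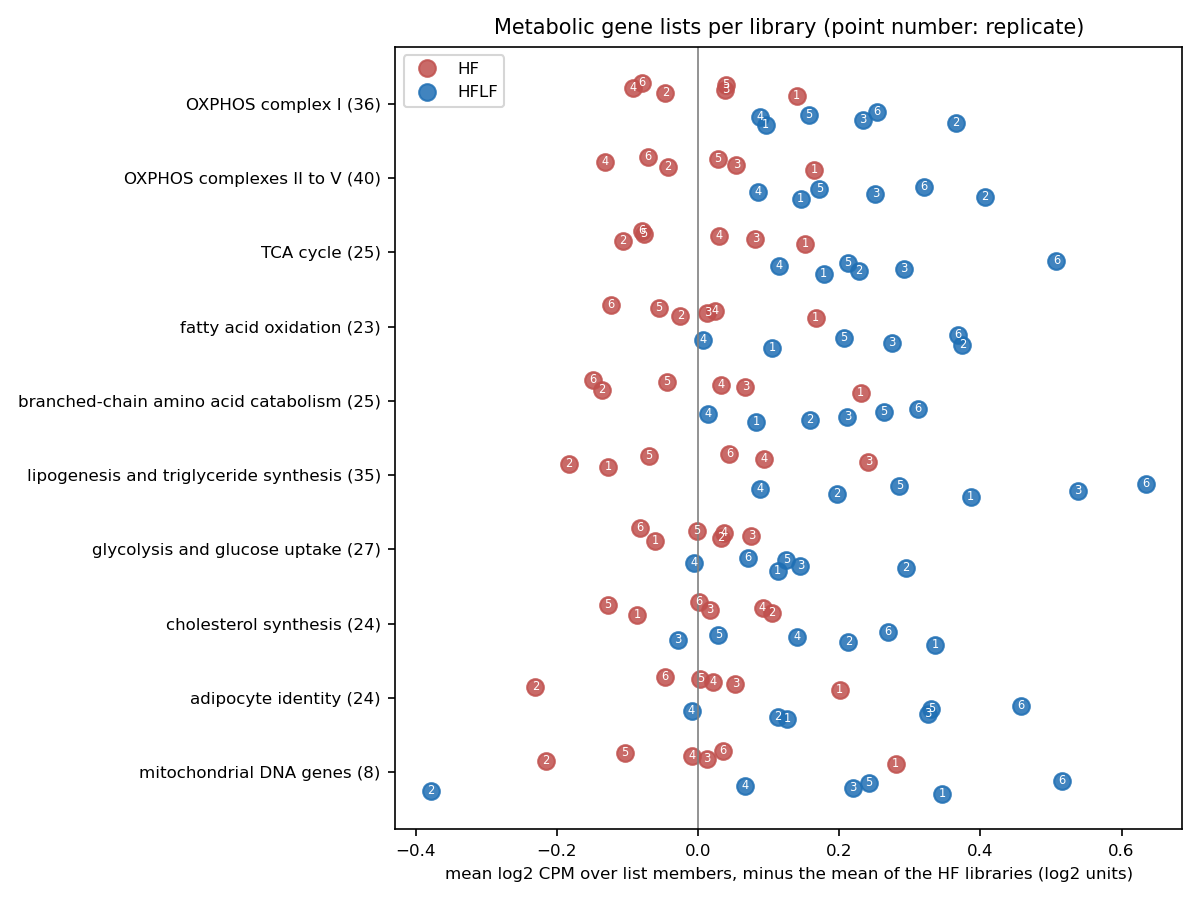
Mean log2 CPM over the members of 10 gene lists in each library, minus the mean of the 6 HF libraries (log2 units), with the replicate number in each point, measured members in brackets and vertical offsets that carry no value. HFLF 2 and HFLF 6 lie farthest to the right in the respiratory chain and fatty acid oxidation lists, and HF 1 lies among the HFLF libraries in most of them.

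These counts moved with the libraries used. Leaving out the 4 HF libraries high in sperm or B cell genes, with 3 LF libraries like them, left HF 1 and HF 4 against 6 HFLF libraries. The counts at an unadjusted p under 0.05 were then 3 for complex I, 3 for complexes II to V, 2 for the TCA cycle, 1 for fatty acid oxidation and 1 for the amino acid list. The medians were 0.17, 0.17, 0.14, 0.12 and 0.042 in that order, and 0.082 for the genes on mitochondrial DNA. Without HF 2, HF 6, LF 3 and LF 6 there were 11 TCA and 3 amino acid genes, and without HF 3, HF 5 and LF 2 there were 10 and 4. Without HF 1 and HFLF 4, high in smooth muscle genes, the counts went up, to 19 for fatty acid oxidation and 14 for the amino acid list. In both lists HF 1 was the highest HF library and HFLF 4 the lowest HFLF library, so a rise followed from this choice. The setting was added after the data were seen. Of single libraries, the 24 genes of complexes II to V became 15 without HF 2, 14 without HF 4, 15 without HF 6 and 11 without HFLF 2. The 17 TCA genes became 11 without HF 2 and 9 without HFLF 6. The 7 amino acid genes became 15 without HF 1, 4 without HF 2 and 4 without HFLF 6. The medians of complex I, complexes II to V, the TCA cycle, fatty acid oxidation and the amino acid list were above 0 in each of the 25 alternatives.

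Beyond the lists, the genes with the smallest p among those higher in HFLF were mostly enzymes of intermediary metabolism. Gys2, the glycogen synthase best known from liver, had the largest fold change among these 12 (ENSMUSG00000030244.7, chromosome 6, 142422613 to 142473109, minus strand). It had 3.67, 5.79 and 9.01 CPM as the lowest, median and highest HF library and 10.1, 13.01 and 29.8 CPM in HFLF, with HFLF 1 and HFLF 6 well above the other HFLF libraries. The log2 fold change was 1.51 ± 0.30 (SE, adjusted p = 0.245). Pla2g2e, a secreted phospholipase A2, had 3.38, 4.63 and 5.95 CPM and 6.55, 8.55 and 15.4 CPM in the same order, a log2 fold change of 1.04 ± 0.20 (SE). Its groups did not overlap, and its highest library was again HFLF 6.

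Gpt, the alanine aminotransferase that links alanine with pyruvate, had 154, 176 and 199 CPM in HF and 214, 251 and 309.7 CPM in HFLF (lowest, median, highest), a log2 fold change of 0.53 ± 0.11 (SE, adjusted p = 0.245). Its groups lay apart. Aldh1l1, the folate enzyme 10-formyltetrahydrofolate dehydrogenase, had 0.58 ± 0.12 (log2 fold change, SE) with overlapping groups. Gstz1, an enzyme of tyrosine breakdown, had 0.36 ± 0.076, Echdc1, an acyl-CoA decarboxylase, 0.40 ± 0.084, and the hydrolase gene Cmbl 0.39 ± 0.083. Fam213b had 0.66 ± 0.14 and Poldip2 0.31 ± 0.063. The groups of these 5 genes did not overlap, and all had an adjusted p of 0.245.

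Synthesis of fatty acids and triglyceride showed larger but more uneven differences. Of 35 measured genes 33 had a higher mean in HFLF and 14 were at an unadjusted p under 0.05, with a median log2 fold change of 0.38 and a range of -0.20 to 1.03. Fasn, the fatty acid synthase (ENSMUSG00000025153.9, chromosome 11, 120805846 to 120824547, minus strand), had 1207, 1652 and 3486 CPM as the lowest, median and highest HF library and 2001, 3486 and 6469 CPM in HFLF. HFLF 1, HFLF 3 and HFLF 6 stood above every HF library, and the other HFLF libraries did not. The log2 fold change was 1.03 ± 0.35 (SE, adjusted p = 0.433). Gpd1, which makes the glycerol phosphate backbone of triglyceride, had 731, 758 and 794 CPM and 760.2, 1186 and 1544 CPM, a log2 fold change of 0.64 ± 0.13 (SE, adjusted p = 0.245). The HF libraries lay close together, and 5 of 6 HFLF libraries were far above them, while HFLF 4 lay among them.

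Slc25a10, the mitochondrial dicarboxylate carrier, had 165, 201 and 231 CPM as the lowest, median and highest HF library and 268, 298 and 497 CPM in HFLF, a log2 fold change of 0.72 ± 0.16 (SE, adjusted p = 0.297). Its groups lay apart, with HFLF 6 the highest. Pnpla3, a lipid droplet hydrolase responsive to feeding, also lay apart (0.56 ± 0.15, log2 fold change, SE). Thrsp, a lipogenic nuclear protein, had 0.57 ± 0.13 and Dgat1, the final enzyme of triglyceride synthesis, 0.38 ± 0.14 (log2 fold change, SE). Scd1, the stearoyl-CoA desaturase, had 0.23 ± 0.18 and Srebf1, the transcription factor gene of this pathway, 0.21 ± 0.17. Both overlapped widely between the groups. Without the 7 libraries high in sperm or B cell genes, 11 of the 35 genes were at an unadjusted p under 0.05 and the median was 0.36.

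**Figure D3:**
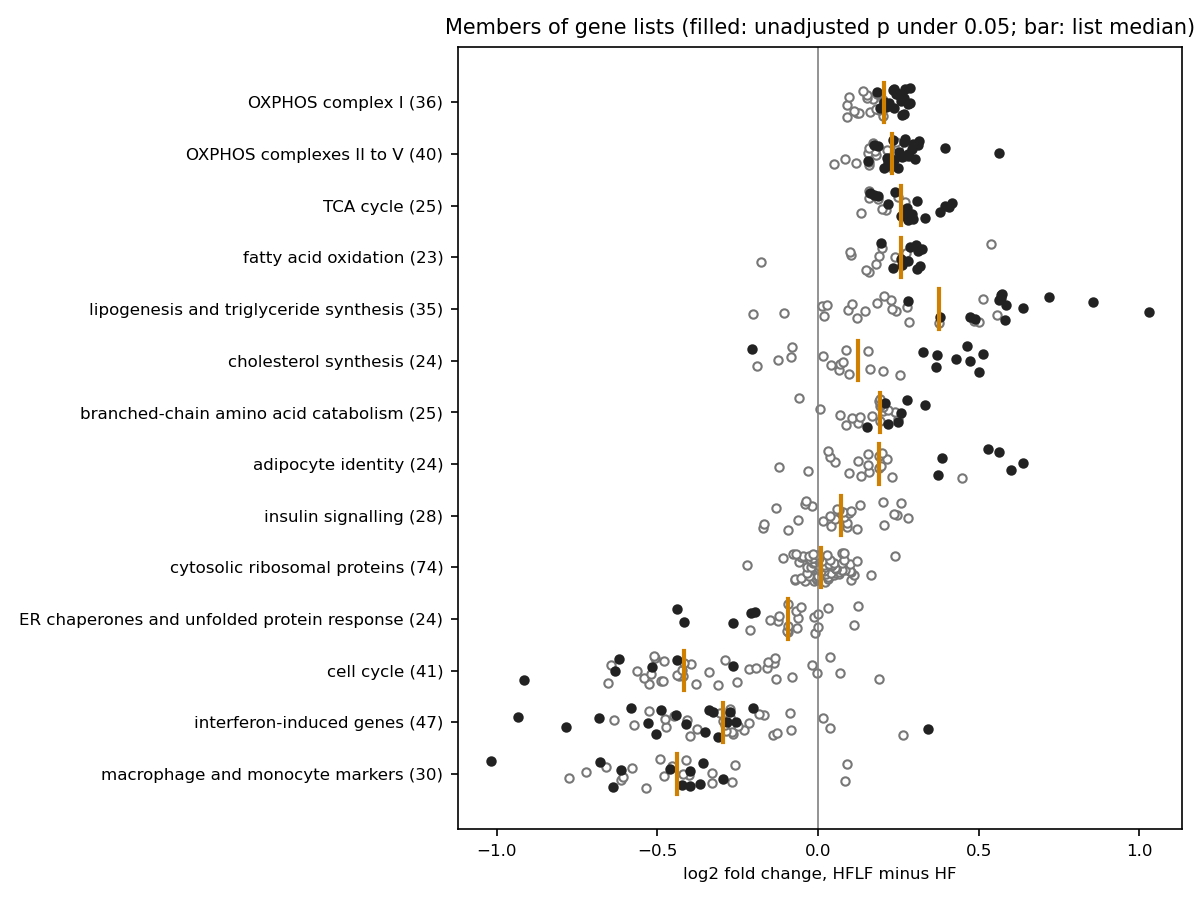
Log2 fold change, HFLF minus HF, of each measured member of 14 gene lists, filled where the unadjusted p is under 0.05, with the list median as a bar and measured members in brackets. The mitochondrial and lipogenic lists lie to the right of 0, ribosomal protein genes around 0, and macrophage, interferon and cell cycle lists to the left.

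Glucose uptake and glycolysis followed with 21 of 27 genes higher in the mean, 9 higher and 1 lower at an unadjusted p under 0.05, and a median log2 fold change of 0.14. Slc2a4, the insulin-responsive glucose transporter GLUT4, had 131, 177 and 240.0 CPM as the lowest, median and highest HF library and 216, 254 and 344 CPM in HFLF, a log2 fold change of 0.53 ± 0.14 (SE, adjusted p = 0.407). Its groups overlapped. The enzyme Aldoa had 1098, 1156 and 1244 CPM and 1356, 1608 and 1809 CPM, 0.44 ± 0.094 on the same scale, with groups apart. Tpi1 and Ldha had log2 fold changes of 0.46 and 0.28, and Gapdh, often taken as a constant reference, 0.31 ± 0.10 (SE). Several of these genes have processed copies in the genome that may take part of their reads. In cholesterol synthesis 8 of 24 genes were higher and 1 lower at an unadjusted p under 0.05, among them Mvk (0.37), Nsdhl (0.51), Lss (0.43) and Pmvk (0.33). The cholesterol count became 5 without the 7 libraries high in sperm or B cell genes. The serine synthesis genes Psat1 and Phgdh had log2 fold changes of 0.35 and 0.35.

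Genes that define the fat cell itself also leaned higher, by a median near that of complex I, with a smaller share at an unadjusted p under 0.05. Of 24 measured, 22 had a higher mean in HFLF and 6 were at an unadjusted p under 0.05, with a median log2 fold change of 0.19. The master regulator Pparg had 0.03 ± 0.11 (SE), with a sign that turned under some alternatives, and Cebpa 0.16 ± 0.13. Fabp4 and the droplet coat gene Plin1 had 0.20 ± 0.11 and 0.19 ± 0.13. Car3, carbonic anhydrase 3, had 0.37 ± 0.14 and the lipoprotein lipase gene Lpl 0.39 ± 0.16. For lipolysis, Pnpla2 and Lipe, the triglyceride and diglyceride lipases, had 0.20 and 0.21, the monoglyceride lipase Mgll 0.26, and Prkaca, the catalytic subunit of protein kinase A, 0.30. Bscl2, the droplet assembly protein seipin, had 0.31. Of the fat cell genes, 3 were at an unadjusted p under 0.05 without the 7 libraries high in sperm or B cell genes, with a median of 0.079, and 10 without HF 1 and HFLF 4, with a median of 0.29. In this list too HF 1 was the highest HF library and HFLF 4 the lowest HFLF library, so the rise without them followed from that choice.

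Hormones of the fat pad showed no common direction. Of 19 measured adipokine genes, 11 had a higher mean and 1 was at an unadjusted p under 0.05. That gene was Rbp4, which encodes retinol binding protein 4, with 467, 595 and 718 CPM as the lowest, median and highest HF library and 628, 805 and 867 CPM in HFLF, a log2 fold change of 0.41 ± 0.11 (SE, adjusted p = 0.407). The groups overlapped. Leptin, Lep, ranged over 966 to 2908 CPM in HF and 986 to 2694 CPM in HFLF, a log2 fold change of 0.16 ± 0.36 (SE). Adipoq had 0.21 ± 0.14, resistin, Retn, 0.30 ± 0.17, and adipsin, Cfd, -0.22 ± 0.37 on the same scale. Mest and Sfrp5, genes tied to fat pad expansion, had -0.13 ± 0.52 and 0.093 ± 0.61, and their SE exceeded the difference. The signs of Lep, Cfd, Mest and Sfrp5 turned under some alternatives.

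Insulin signalling genes were close between the arms, with 0 of 28 at an unadjusted p under 0.05. Insr had a log2 fold change of 0.054 ± 0.13, Igf1r -0.063 ± 0.11 and Irs2 0.08 ± 0.19 (SE), where the signs of Insr and Irs2 turned under some alternatives. Among microRNA processing genes 0 of 18 were at that level, and Dicer1, which cuts precursor microRNAs, had 40.7 to 46.6 CPM in HF and 42.3 to 49.5 CPM in HFLF. A list of let-7 targets had 1 gene higher (3.23%) and 3 lower (9.68%) of 31 at an unadjusted p under 0.05, beside 4.86% and 4.43% of all genes. Leaving out single libraries gave 1 to 2 higher and 2 to 4 lower. Among the genes at that level were the cyclin genes Ccnd2 (0.37 ± 0.13) and Ccnd1 (-0.43 ± 0.14) and the kinase gene Cdk6 (-0.37 ± 0.15), all as log2 fold change with SE. Of 18 thermogenic genes 4 were higher and 1 lower at that level, and Cox8b (0.64), Cox7a1 (0.56) and Kcnk3 (0.40) were among the higher. Ucp1 was looked for but was not among the deposited genes of eWAT, so it has no value here. Cytosolic ribosomal protein genes stood at 0 of 74, with 43 higher in the mean and a median log2 fold change of 0.010. Endothelial markers had 0 of 23 at that level and a median of 0.084, with 2 higher without HF 2, HF 6, LF 3 and LF 6.

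A list of general macrophage and monocyte markers had lower means in HFLF. Of 30 measured markers 28 had a lower mean and 11 were at an unadjusted p under 0.05, with a median log2 fold change of -0.44. As mean log2 CPM the list stood at 5.11 to 5.79 in HF and 4.59 to 5.26 in HFLF, overlapping, with HF 2 the highest and HFLF 6 and HFLF 3 the lowest. Plac8 had 3.92, 5.55 and 11.7 CPM as the lowest, median and highest HF library and 2.05, 3.37 and 3.83 CPM in HFLF, a log2 fold change of -1.02 ± 0.35 (SE, adjusted p = 0.44). Its groups lay apart, as did those of Aif1, which encodes the macrophage protein IBA1 (-0.64 ± 0.24), and, outside the list, of the chemokine receptor gene Ccr1 (-0.71 ± 0.29). The resident macrophage gene Folr2 had -0.40, the scavenger receptor gene Msr1 -0.68 and the complement gene C1qc -0.37, with overlapping groups. Without the 7 libraries high in sperm or B cell genes, 3 of the 30 were at an unadjusted p under 0.05 and the median was -0.27. A separate list of lipid-associated macrophage markers did not share this pattern of counts. Of its 19 measured genes 13 had a lower mean, but 0 were lower and 2 higher at an unadjusted p under 0.05, among them Lpl, which fat cells also make. Its median was -0.36, and 0.081 without HF 2.

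The 12 genes with the smallest p among those lower in HFLF included several genes of innate immunity. Cfp, properdin of the complement system (ENSMUSG00000001128.7, chromosome X, 20925454 to 20931555, minus strand), had 89.9, 102 and 123 CPM as the lowest, median and highest HF library and 53.4, 79.6 and 86.6 CPM in HFLF, a log2 fold change of -0.52 ± 0.13 (SE, adjusted p = 0.395). Every HFLF library lay below every HF library. Rgs14, a regulator of G protein signalling, also lay apart between the groups (-0.69 ± 0.19). Pycard, the inflammasome adaptor, had -0.61 ± 0.16, Pf4, platelet factor 4, -0.47 ± 0.13, and Pla2g4a, a cytosolic phospholipase A2, -0.53 ± 0.14. Sfxn3, a mitochondrial amino acid carrier, had -0.39 ± 0.10, the transcription factor gene Rfx1 -0.30 ± 0.078, and the potassium channel gene Kcnk6 -0.40 ± 0.11 (all log2 fold change, SE, groups overlapping). The other 4 of the 12 were sperm genes.

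A joint list of neutrophil and mast cell markers had 11 measured genes, 7 with a lower mean in HFLF and 4 with a higher one. At an unadjusted p under 0.05, 4 were lower and 0 higher. The 4 lower were the mast cell proteases Cpa3 (-0.91 ± 0.29), Cma1 (-0.81 ± 0.31), Tpsb2 (-0.88 ± 0.35) and Mcpt4 (-0.80 ± 0.33), given as log2 fold change with SE. Cpa3 ran over 3.10 to 7.52 CPM in HF and 1.56 to 6.67 CPM in HFLF. HF 2 was the low HF library and HFLF 4 the high HFLF library. The count was 2 without HF 3, 2 without HFLF 1 and 1 without HF 3, HF 5 and LF 2. It was 2 without the 7 libraries high in sperm or B cell genes, where the median of the 11 went from -0.45 to -0.83.

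Interferon-induced genes had 43 of 47 lower in the mean, 17 lower and 1 higher at an unadjusted p under 0.05, and a median log2 fold change of -0.30. HF 5 stood highest at 4.88 mean log2 CPM, and the HFLF libraries lay within 3.93 to 4.10. The signalling genes Stat2 and Irf9 had log2 fold changes of -0.27 ± 0.084 and -0.25 ± 0.083 (SE), and the antiviral gene Oas1a -0.68 ± 0.22. Ifi27 went the other way, with 331, 370.5 and 395 CPM as the lowest, median and highest HF library and 418, 444 and 530.2 CPM in HFLF, and its groups lay apart (0.34 ± 0.082). Leaving out HF 5 turned the 17 lower genes into 5, while leaving out HFLF 3 gave 10, HFLF 5 gave 9 and HFLF 6 gave 11. Without the B cell rich libraries HF 3, HF 5 and LF 2 they became 4, with a median of -0.18, without HF 5, LF 3 and LF 5 they became 8, with a median of -0.18, and without the 7 libraries high in sperm or B cell genes 6.

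Smaller groups also leaned lower. Of 41 cell cycle genes 38 had a lower mean, 6 at an unadjusted p under 0.05, among them the cyclin Ccnb2 (-0.92 ± 0.34) and the replication gene Mcm5 (-0.52 ± 0.17). The 6 became 3 when HF 2, HF 5 or HFLF 3 was left out, 11 when HFLF 1 was, and 10 when HFLF 6 was. They became 16 without HF 2, HF 6, LF 3 and LF 6, 1 without HF 3, HF 5 and LF 2, and 0 without all 7 of these, where the list median went from -0.42 to -0.26. Of 24 chaperone and unfolded protein response genes of the endoplasmic reticulum 5 were lower at that level, among them the stress sensor Ern1 (-0.27) and the disulphide isomerase Pdia4 (-0.20), and leaving out single libraries gave from 1 to 5, with 1 or 2 when HF 1, HF 2, HF 3, HF 5, HFLF 3, HFLF 5 or HFLF 6 was left out. The count was 1 without HF 3, HF 5 and LF 2, 2 without HF 5, LF 3 and LF 5, and 0 without the 7 libraries high in sperm or B cell genes. In the matrix, fibronectin, Fn1, had -0.43 ± 0.14 and the collagen gene Col15a1 0.42 ± 0.16. The metallothionein gene Mt2 had -0.58 ± 0.31.

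Marker genes of other tissues differed between the arms through a few libraries. Of 36 listed testis and epididymis genes 10 were measured, and 8 were lower in HFLF at an unadjusted p under 0.05. This count carries no weight, because 6 of the 10 had an HFLF mean at or under the floor of 3 counts, so that genes which stayed in the table through the libraries where they are high had to be lower elsewhere. Ldhc, the sperm lactate dehydrogenase, had 12.8 CPM in HF 2 and 12.9 CPM in HF 6, and at most 0.328 CPM in the other HF libraries and 0.0820 CPM in HFLF. The protamine gene Prm1 had 12.9 and 21.9 CPM in those libraries, Tnp2, a transition protein, 12.02 and 23.3, and the germ cell gene Gsg1 13.8 and 12.7. The floor of 3 counts lay at 0.115 to 0.294 CPM in the HFLF libraries, and of the HFLF values of these 4 genes only that of Tnp2 in HFLF 3, at 0.428 CPM, was above its own library's floor. A fold change of these genes depends on the prior count, so none is given for them singly. The fitted list median was -5.14, or -4.15 with the HFLF mean set to no less than the floor, and -0.41 without HF 2, HF 6, LF 3 and LF 6, where 1 gene was at that level.

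B cell markers had 25 of 25 lower in the mean and 14 at an unadjusted p under 0.05, with a median log2 fold change of -2.13. Cd22, an inhibitory receptor of B cells, had 15.6 CPM in HF 3 and 24.1 CPM in HF 5, at most 5.10 CPM in the other HF libraries, and 0.984 to 3.24 CPM in HFLF. The 14 genes became 3 when HF 3 was left out and 0 when HF 5 was. Leaving out HFLF 1 gave 3, HFLF 2 gave 4, HFLF 3 gave 3, HFLF 4 and HFLF 5 gave 9 each, and HFLF 6 gave 2. Without HF 3, HF 5 and LF 2, 3 were lower and 1 higher, and the median was -0.43. Without HF 1 and HFLF 4 the count was 9. It was 1 without HF 5, LF 3 and LF 5, with a median of -1.18, and 1 without all 7 libraries high in sperm or B cell genes.

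Hepatocyte genes had 25 of 28 lower in the mean and 20 at an unadjusted p under 0.05, with a median log2 fold change of -1.98. Their mean log2 CPM was 4.93 in HF 5, 1.08 in HF 4 and 2.81 to 3.17 in the other HF libraries, and 3.18 in HFLF 1 against 0.926 to 1.62 in the other HFLF libraries. Serpina1c, a protease inhibitor of liver, had 0.262, 2.49 and 10.8 CPM in HF and 0.196, 0.350 and 1.99 CPM in HFLF, and the urinary protein gene Mup20 0.787, 5.30 and 30.6 and 0.0713, 0.420 and 5.30 (lowest, median, highest). Both belong to families of near-identical genes, so their counts are uncertain. Their HFLF medians were also close to the floor of 3 counts (0.115 to 0.294 CPM). Members this low in HFLF stayed in the table through libraries where they are high, so their lower HFLF means carry no weight. The counts and medians of this list include such members. The 20 became 2 without HF 5, 3 without HF 5, LF 3 and LF 5, 0 without HF 3, HF 5 and LF 2, and 0 without all 7 libraries high in sperm or B cell genes, where the median was -0.36. In the complement and coagulation list, 8 of 32 genes were lower at an unadjusted p under 0.05, among them Cfp and the coagulation factor gene F5 (-1.04 ± 0.32, log2 fold change, SE). That count ran from 3 to 10 when single libraries were left out.

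Mesothelial markers had 20 of 20 lower in the mean with 1 at an unadjusted p under 0.05 and a median of -0.73. HF 3 and HF 5 were the highest HF libraries, and without them and LF 2 the median was -0.30 with 0 genes at that level. Without HF 2, HF 6, LF 3 and LF 6 there were 8, with a median of -1.08. HFLF 6 stood at 0.634 mean log2 CPM, where the other HFLF libraries had 3.81 to 4.89, and HF 6 was the lowest HF library at 2.67. Ezr, which encodes ezrin, had 29.00 to 70.4 CPM in HF and 12.7 to 39.2 CPM in HFLF, and the mesothelial mucin gene Muc16 1.03 to 25.2 and 0.164 to 8.20 CPM. Smooth muscle markers had 0 of 20 at an unadjusted p under 0.05, with HF 1 at 6.83 and HFLF 4 at 6.57 mean log2 CPM against 5.17 to 5.86 in the other 10 libraries. HFLF 6, the library lowest in the macrophage list, the mesothelial list and the joint neutrophil and mast cell list, was also highest in the TCA, lipogenic and fat cell lists. HF 1 and HFLF 4 were the highest HF library and the lowest HFLF library in most mitochondrial lists. The part that these marker genes and libraries have in the differences of the metabolic and immune lists was not tested beyond leaving the libraries out.

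**Figure D4:**
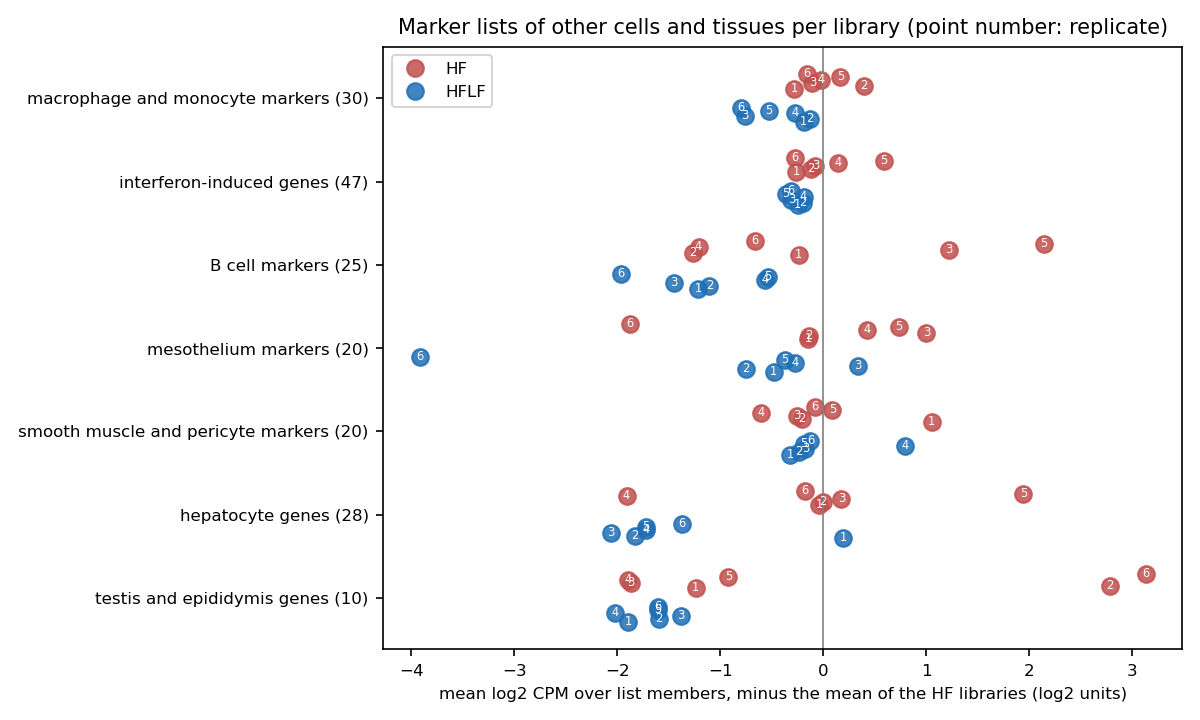
Mean log2 CPM over the members of 7 marker lists in each library, minus the mean of the 6 HF libraries (log2 units), with the replicate number in each point, measured members in brackets and vertical offsets that carry no value. HF 2 and HF 6 stand far to the right in testis genes, HF 3 and HF 5 in B cell genes and HF 5 in hepatocyte genes, and HFLF 6 stands far to the left in mesothelial genes.

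The LF arm places these values. The HF minus LF and HFLF minus LF differences share the 4 LF libraries with each other and the HF and HFLF libraries with the comparison above, so they are given side by side only. For complex I the median log2 differences were -0.18 for HF minus LF and 0.033 for HFLF minus LF. For the TCA cycle they were -0.23 and 0.027, and for lipogenesis -0.34 and -0.017. Fasn had -0.93 and 0.10, and Gpd1 -0.59 and 0.051. In these 3 lists the HFLF median lay nearer to LF than the HF median did. As mean log2 CPM, the 4 LF libraries ran from 6.16 to 6.50 for complex I, 7.34 to 7.83 for the TCA cycle and 7.84 to 8.21 for lipogenesis. Each of these ranges overlapped those of both HF and HFLF. LF 2 was high in B cell genes, and LF 3 and LF 6 in sperm genes. Their part in these differences was not tested. Not all mitochondrial lists shared this, with -0.05 and 0.14 for the amino acid list and -0.025 and 0.18 for the genes on mitochondrial DNA, where HFLF was the farther from LF. Macrophage markers had -0.19 and -0.65, with HFLF the farther from LF.

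In liver the same contrast gave 0 genes at an adjusted p under 0.05 of 13677 (edgeR) and 255 at an unadjusted p under 0.05 (1.86%), beside 9.3% in eWAT. The median log2 fold change of complex I genes was -0.0049 in liver and 0.20 in eWAT, and that of the lipogenic list -0.077 and 0.38. The difference between the tissues was tested for 12735 genes in both tables, where 0 passed an adjusted p of 0.05 by edgeR, 0 by limma voom with a block, and 629 had an unadjusted p under 0.05 (4.94%, edgeR). The edgeR test took eWAT and liver libraries as independent. The voom block assumed that libraries of the same arm and number came from the same animal. For Cycs the liver value was -0.065 ± 0.12 (SE), and the adjusted p of the tissue difference was 0.943. For Gys2 they were -0.02 ± 0.16 and 0.635. None of the differences described here was shown to be particular to eWAT.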

How the data were processed

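RNA of eWAT and liver was sequenced in 31 libraries, and the analysis rests on the 16 of eWAT. The deposited tables hold raw counts per gene. STAR and GRCm38.p6 are named in the submitters' processing notes. For the counting tool, its strand setting, the annotation and the authors' CPM minimum, nothing was stated in the sources used. The deposited RPKM tables were not used. Their ratio to CPM varied between libraries of the same gene by a median CV of 111%.

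Libraries were grouped by their titles. All 15987 deposited genes of eWAT were fitted with edgeR 4.0.16 (TMM, robust quasi-likelihood, R 4.3.3) over the 16 libraries, with the contrast HFLF minus HF and Benjamini-Hochberg adjustment. The biological coefficient of variation was 0.219. For the comparison of tissues, the 12735 genes in both count tables were fitted over all 31 libraries, with the arm difference in eWAT minus that in liver as the contrast. CPM used TMM-scaled library sizes, and list levels are means of log2 CPM with a prior count of 2. The 52 gene lists are described by counts and medians, with no test of a list. A total of 3 counts was taken as the floor of detection, and it covers counting error only. The lowest correlation between libraries of a group was 0.948, and no pair differed by as little as sampling noise.

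The text names the 12 genes of smallest p per direction with a mean of at least 2 CPM and a full gene symbol, up to 10 per direction whose groups lay apart, up to 4 per list by p, and 26 fat cell, insulin and reference genes. Of these 26, all but Ucp1 were measured. Some of the genes lying apart and of the list members were left out. The comparison, lists and genes were chosen with earlier results of these data known. Alternatives were other scalings, DESeq2 1.42.0, limma 3.58.1 (voom), filters on low counts, the 12 libraries alone, a replicate block and leaving out libraries.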

Additional observations from a re-analysis of the deposited data

Results flagged for a closer look

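In 26 of 286 groups of 6 libraries examined (9.09%), the highest or lowest library stood apart from the other 5 by Dixon's criterion, which chance meets in about 1 in 20 groups. HFLF 6 stood apart 5 times. It was high in Slc25a10 (497.1 CPM, next 314.6) and Car3 (24320 CPM), and low in Ccr1 (2.95 CPM, next 5.253), Ezr (12.7 CPM, next 30.5) and the mesothelial list (0.6341 mean log2 CPM, next 3.806). HF 1 was high in the lipase gene Pnpla2 (3715 CPM), in Ppargc1a (6.551 CPM, next 3.571) and in Bscl2 (260.6 CPM), and low in Pla2g4a (9.106 CPM). HF 5 was high in Plac8 (11.73 CPM, next 6.486), Serpina1c (10.81 CPM, next 2.857) and Mup20 (30.56 CPM, next 5.918), and low in Etfdh (77.73 CPM). HF 2 was high in Msr1 (19.48 CPM) and low in Cpa3 (3.096 CPM).

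HFLF 1 was high in Serpina1c (1.994 CPM), Mup20 (5.304 CPM) and the hepatocyte list (3.181 mean log2 CPM, next 1.617). HFLF 2 was high in Irs2 (215.7 CPM), Ndufb3 (125.8 CPM) and Mvk (43.99 CPM). HFLF 4 was low in Ccnd2 (266.4 CPM) and Phgdh (320.6 CPM) and high in the smooth muscle list (6.573 mean log2 CPM). HFLF 5 was low in Pmvk (38.27 CPM), and HFLF 3 was high in Tnp2 (0.4278 CPM).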

How the results depend on the processing

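Of 122 named genes, 114 kept the direction of their difference under every alternative run, and 8 reversed under at least 1. DESeq2 passed 35 genes higher and 12 lower at an adjusted p under 0.05, where edgeR passed 0. The replicate block passed 1 higher, Pla2g2e (adjusted p = 0.0496), and 2 lower, Ldhc and the immunoglobulin gene Ighg2b (both 0.00307, edgeR). Ighg2b was named after its value was seen. Ldhc is a sperm gene under the floor in HFLF, so its call carries no weight, like those of the sperm genes that DESeq2 passed. With the block, 1205 genes were lower at an unadjusted p under 0.05. Same-numbered HF and HFLF libraries correlated at -0.338, 0.304, 0.196, -0.143, 0.145 and 0.375 for numbers 1 to 6, so not every pair was above 0.1 and the numbers were not taken as pairs. For numbers 2, 3, 5 and 6 each library correlated best with its own number, in both directions, a hint of pairing from the data and not the design. Leaving out single libraries gave 517 to 918 genes higher and 411 to 842 lower at an unadjusted p under 0.05. Without HF 3, HF 5 and LF 2 there were 455 higher, and without those and HF 2, HF 6, LF 3 and LF 6 together 272 higher and 188 lower. The last setting leaves 2 HF libraries and gave list medians of 0.12 for fatty acid oxidation, -0.49 for B cell, -0.31 for testis and -0.36 for hepatocyte genes. Without HF 3, HF 5 and LF 2 the B cell median was -0.43 and the hepatocyte median -0.86. The testis median was -2.27 with voom, -0.93 with 1 CPM in 6 libraries, -2.83 with a mean of 5 CPM, and -0.41 without HF 2, HF 6, LF 3 and LF 6.

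The 8 genes that reversed all had a difference smaller than its SE. Without HF 2, HF 6, LF 3 and LF 6, Insr was -0.024, Ppargc1a -0.16 and Mest 0.39. Without HF 3, HF 5 and LF 2, Lep was -0.023, Pparg -0.020, Irs2 -0.12, Ppargc1a -0.017 and Sfrp5 -0.094. Without all 7, Pparg was -0.099, Insr -0.059, Irs2 -0.19, Ppargc1a -0.40 and Mest 0.087. Mest was 0.010 with voom and 0.035 with the replicate block. In settings added after seeing the data, Pparg was -0.0065, Irs2 -0.0092 and Ppargc1a -0.015 without HF 5, LF 3 and LF 5, and Sfrp5 was -0.0060 without HF 1 and HFLF 4. Leaving out single libraries gave -0.39 to 0.025 for Cfd, -0.0060 to 0.12 for Insr, -0.064 to 0.15 for Irs2, -0.31 to 0.074 for Mest, -0.0071 to 0.10 for Pparg, -0.13 to 0.33 for Ppargc1a and -0.073 to 0.24 for Sfrp5. The cause of these changes was not tested. Depth limits genes near the floor of 3 counts, 0.115 to 0.294 CPM in the HFLF libraries.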
